A study of Mus musculus with 12 samples.

Results

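The miR-15/16 family is a group of microRNAs (miRNAs, short RNAs that guide repression of messenger RNAs) defined by 1 shared seed, the stretch near the 5′ end that pairs with target sites. Its members here are the probes named mmu-miR-15a, mmu-miR-15b, mmu-miR-16, mmu-miR-195, mmu-miR-497 and mmu-miR-322, written below without the species prefix. They were chosen by name, with earlier results of these data known. All 6 were present among the 355 mouse probes of an nCounter miRNA assay, in which barcoded probes are hybridised and counted without amplification. The assay was run on total RNA of 12 C57Bl/6 mouse livers of 4 ages. Embryonic day 15.5 (e15.5) had 3 samples of mixed sex, and 2, 3 and 7 weeks after birth had 3 males each. The labels name no transgene and no treatment. Any difference from e15.5 could be one of sex as well as of age, and these cannot be told apart. Whether each e15.5 sample came from 1 embryo or from several is not said in the labels, and in the latter case their spread is one between pools. The series concerns miR-122 and hepatocyte polyploidization after birth, and its 4 ages run from the fetal, blood-forming liver to the young adult liver.

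Members of this family bind the same target sites through the shared seed and are known as repressors of cyclins and cyclin-dependent kinases of the G1 phase, among them cyclin D1, cyclin E1 and CDK6. miR-15a and miR-16 are known for their loss in chronic lymphocytic leukaemia, and miR-195 for its rise in the mouse heart shortly after birth, when cardiomyocytes leave the cell cycle. In the liver, hepatocytes divide in the fetus and in the first weeks of life and then largely stop, with many becoming polyploid.

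The mature sequences are shown because the members share their seed and differ in the letters after it. They are the RefSeq 5p strands annotated on GRCm38.p6, 5′ to 3′, with bases 2 to 8 (the seed) in capitals. The deposited probe names give no arm, so the 5p arm, which carries the family's seed, was taken for all of them.
miR-15a: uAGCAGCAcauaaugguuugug
miR-15b: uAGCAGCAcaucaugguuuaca
miR-16: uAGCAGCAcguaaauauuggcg
miR-195: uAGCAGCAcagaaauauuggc
miR-497: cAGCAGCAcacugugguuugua
miR-322: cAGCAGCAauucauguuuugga

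All 6 probes share the seed AGCAGCA, and the RefSeq table holds 10 mature miRNAs with it. Outside the seed the closest pair is miR-16 and miR-195, identical at 19 of 21 compared bases and differing by G10A and U11G (miR-16 base first, counted from 1 at the 5′ end). Next come miR-15a and miR-15b, identical at 18 of 22 bases and differing by A12C, G20A, U21C and G22A (miR-15a base first). The pair miR-15a and miR-16, although encoded side by side, is identical at 16 of 22 bases. No source used here gives how far a probe for 1 of these sequences also captures another, and this was not tested. At e15.5 the miR-195 probe read at the floor in livers where miR-16 was among the brightest probes. That reading covers only miR-16 on the miR-195 probe, and no other pair or direction.

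The members come from 4 loci. Mir15a (chr14:61632075-61632096, minus strand) and Mir16-1 (chr14:61631936-61631957, minus strand) start 139 bases apart within the bounds of the long non-coding RNA gene Dleu2. Mir15b (chr3:69009775-69009796, plus strand) and Mir16-2 (chr3:69009918-69009939, plus strand) start 143 bases apart within the protein-coding gene Smc4, which encodes a condensin subunit used in mitotic chromosome condensation. Mature miR-16 is the same from both loci, so its probe reads their sum. Mir497 (chr11:70234730-70234751, plus strand) and Mir195a (chr11:70235062-70235082, plus strand) start 332 bases apart, and Mir322 (chrX:53054306-53054327, minus strand) lies within the long non-coding RNA gene C430049B03Rik. All coordinates are of the mature 5p strand on GRCm38.p6.

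Values were log2 values as deposited, and the lowest value in each sample, log2 of 0.001, was a floor that marked probes at or below background. Summed over probes, the linear signal of a liver was 148505 to 172057 at e15.5. It was 486743 to 618776 at 2 weeks, then 478381 to 539127 at 3 weeks, and 236866 to 267914 at 7 weeks, and 44 to 196 probes per liver were at the floor. Since bright probes shifted together between ages, each change is also given on a second scale, called centred below, from which the mean log2 value of the 100 brightest probes was subtracted liver by liver. miR-122, the defining hepatocyte miRNA, the erythroid miR-451 and miR-144, and the leukocyte miR-142-3p and miR-223 were above the floor at all 4 ages. Replicates are livers numbered 1 to 3 within an age, n is 3 per age, and mean ± SD is over these livers. Changes are tested with limma over all 355 probes with Benjamini-Hochberg adjustment, at a threshold of 0.05.

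miR-15a had log2 values of 12.37, 12.14 and 12.19 in the 3 livers at e15.5. The values were 12.03, 11.57 and 11.25 at 2 weeks, 11.67, 11.61 and 11.73 at 3 weeks, and 10.60, 10.66 and 10.77 at 7 weeks. The e15.5 livers lay above every postnatal liver and the 7-week livers below all others, whereas 2 and 3 weeks overlapped.

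miR-15b, encoded with miR-16 in Smc4, read 12.38, 12.35 and 12.28 at e15.5, 11.85, 11.60 and 11.38 at 2 weeks, and 11.40, 11.23 and 11.55 at 3 weeks. At 7 weeks it read 9.79, 9.49 and 9.64. Its order over the ages was that of miR-15a, with 2 and 3 weeks again overlapping, but its mean at 7 weeks, 9.64 ± 0.15, was further below the e15.5 mean of 12.33 ± 0.05.

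miR-16 read 12.56, 12.13 and 12.28 at e15.5 and 12.73, 12.05 and 12.04 at 2 weeks. It read 12.66, 12.76 and 12.97 at 3 weeks and 11.89, 12.01 and 11.99 at 7 weeks. Its 4 means, 12.32 ± 0.22, 12.27 ± 0.39, 12.80 ± 0.16 and 11.96 ± 0.06, lay within 1 log2 unit of each other. The 7-week livers were below all others, the e15.5 and 2-week livers overlapped, and 1 liver at 2 weeks reached into the 3-week range.

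miR-322, the mouse counterpart of human miR-424, was far dimmer. It read 7.30, 6.58 and 6.71 at e15.5, 7.80, 6.81 and 7.33 at 2 weeks, and 6.83, 7.14 and 6.89 at 3 weeks. These 3 ages overlapped, and the 7-week livers, at 5.55, 5.50 and 5.40, lay below all of them.

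miR-195 was at the floor in all 3 livers at e15.5 and above it in all 9 postnatal livers. It read 6.51, 6.11 and 5.92 at 2 weeks, 6.05, 5.85 and 5.58 at 3 weeks, and 3.32, 4.15 and 4.44 at 7 weeks. The postnatal livers separated into the 7-week livers, which were lowest, and the 2- and 3-week livers, which overlapped. At 7 weeks its linear values were 9.99 to 21.7, in a range where other probes of the same liver carried identical values, so its level there is a low reading near background.

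miR-497, its neighbour on chromosome 11, was above the floor in 1 of 3 livers at e15.5 (4.30) and 1 of 3 at 3 weeks (-0.12). It read 4.15, 2.96 and 2.41 at 2 weeks and 4.19, 3.60 and 1.30 at 7 weeks. No linear value exceeded 19.7. miR-497 was therefore measured near background throughout, and its values order no ages.

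**Figure D1:**
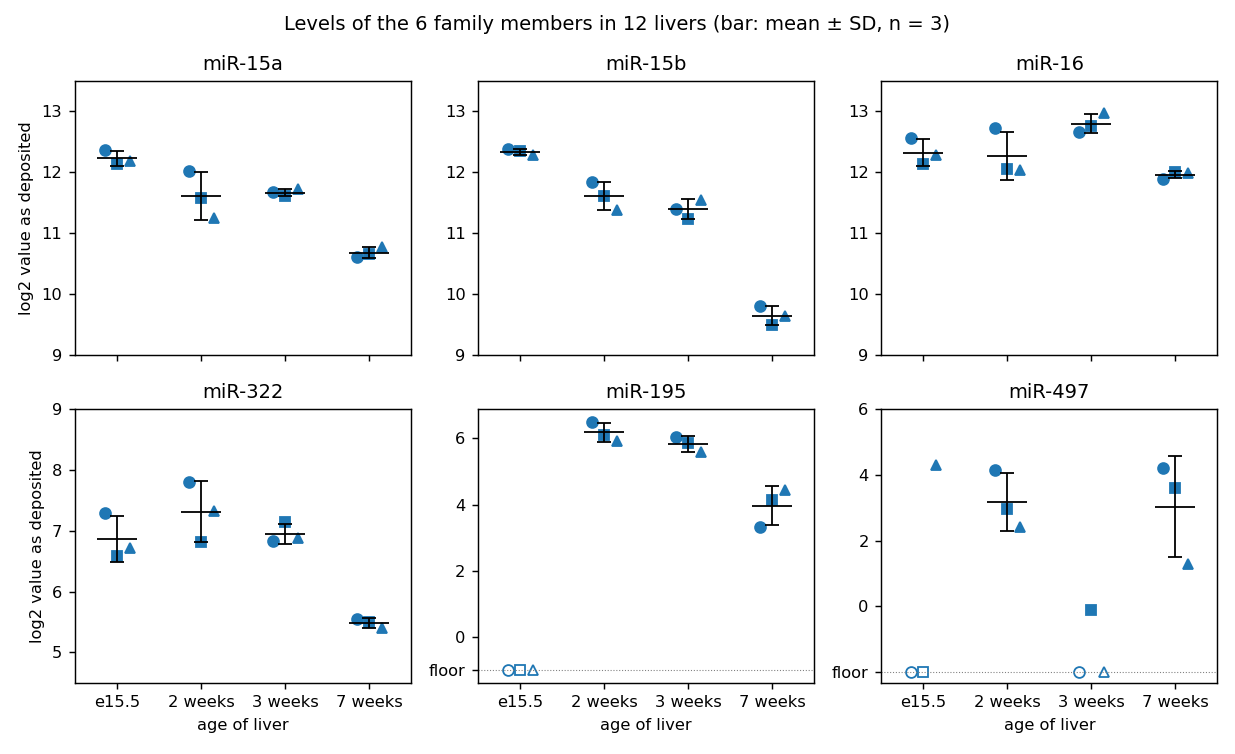
Log2 value as deposited (vertical axis) of each family member against the age of the liver (horizontal axis). Circles, squares and triangles are mice 1, 2 and 3, bars are mean ± SD where all 3 livers were above the floor, and open symbols are livers at the floor, drawn at a fixed place that is not to scale. miR-15b ends at 9.64 at 7 weeks, whereas miR-16 stays between 11.89 and 12.97 in all 12 livers, and miR-195 leaves the floor only after birth.

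Tested over all 4 ages at once, 5 of the 6 members differed by limma's F test as deposited (miR-15b, adjusted p = 1.2e-07, miR-15a, 8.9e-05, miR-322, 0.00074, miR-16, 0.016, and miR-195). The p of miR-195 is not given, since its e15.5 livers all lie on the floor value and have no spread. miR-497 did not pass (adjusted p = 0.077). Of all 355 probes, 54.4% passed that test, and 61.1% passed it on the centred scale, where the same 5 members passed. Most probes thus differed with age, and a call by itself does not set the family apart.

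At 2 weeks against e15.5, miR-15a and miR-15b fell and miR-195 rose from the floor. All counts of members against e15.5 include miR-195, although the size and p of a change from the floor depend on the floor value. miR-15a fell by 0.62 ± 0.16 (log2 change ± SE here and below, adjusted p = 0.010 by limma) and miR-15b fell by 0.72 ± 0.13 (adjusted p = 0.00093). miR-16 changed by -0.05, with a 95% interval from -0.46 to 0.36, and miR-322 by 0.45 ± 0.27 (adjusted p = 0.18). The change of miR-322 passed without liver 1 of e15.5 (0.67, adjusted p = 0.049 by limma) or without liver 2 of 2 weeks (0.70, adjusted p = 0.045), and was 0.21 without liver 1 of 2 weeks. So 1 member was higher and 2 were lower, where 28.2% of all probes were higher and 22% were lower. Over the same step the mean of the 100 brightest probes went up by 1.75. On the centred scale all 4 members measured in every liver fell, miR-15b by 2.47 ± 0.10, miR-15a by 2.36 ± 0.14, miR-16 by 1.80 ± 0.15 and miR-322 by 1.29 ± 0.26 (adjusted p = 9.5e-09, 1.8e-07, 3.3e-06 and 0.0022 by limma). With miR-195 this gave 1 member higher and 4 lower, against 19.2% and 45.6% of all probes. The fall of miR-15a and miR-15b was called on both scales, while that of miR-16 and miR-322 was called only after centring.

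At 3 weeks against e15.5, miR-15a fell by 0.57 ± 0.16 (adjusted p = 0.014 by limma) and miR-15b fell by 0.94 ± 0.13 (adjusted p = 0.00012). miR-16 was higher by 0.47 ± 0.18 (adjusted p = 0.048), a call that was lost when any 1 of 9 of the 12 livers was left out (adjusted p up to 0.16) and that turned to a fall of 0.91 ± 0.15 on the centred scale (adjusted p = 0.00047). miR-322 changed by 0.09 ± 0.27 as deposited (adjusted p = 0.80) and fell by 1.30 ± 0.26 after centring (adjusted p = 0.0018 by limma). As deposited 2 members were higher, miR-16 and miR-195, and 2 were lower, against 25.6% and 32.7% of all probes. On the centred scale, with a shift of 1.39 removed, 1 was higher and 4 were lower, against 18% and 49.9%.

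At 7 weeks against e15.5 the shift of the bright probes was smallest, 0.27, and both scales gave the same directions. miR-15b fell by 2.69 ± 0.13, a 6.46-fold difference (adjusted p = 3.0e-08 by limma), and by 2.96 ± 0.10 after centring. miR-15a fell by 1.55 ± 0.16 (adjusted p = 1.6e-05) and by 1.82 ± 0.14 after centring, and miR-322 fell by 1.38 ± 0.27 (adjusted p = 0.0018) and by 1.65 ± 0.26 after centring. miR-16 changed by -0.36 ± 0.18, which was not called (adjusted p = 0.15 by limma, but 0.034 without liver 1 of 2 weeks), and fell by 0.63 ± 0.15 after centring (adjusted p = 0.0060). miR-195 was called higher, from the floor, a call that depends on the floor value and on 7-week readings near background. As deposited 1 member was higher and 3 were lower, against 18.6% and 26.2% of all probes, and after centring 1 was higher and 4 were lower, against 17.5% and 29.3%. Of the 4 members measured in every liver, miR-15b changed most and miR-16 least on both scales.

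**Figure D2:**
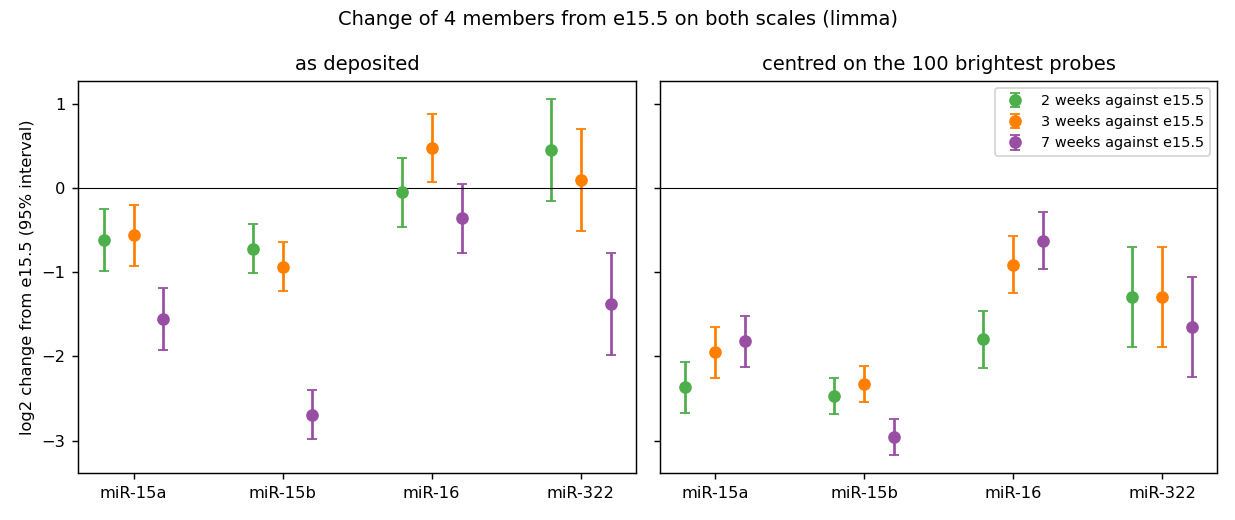
Log2 change from e15.5 with its 95% interval (vertical axis) for the 4 members above the floor in all livers, as deposited (left) and centred on the 100 brightest probes (right). Points are limma estimates from 3 livers per age. miR-15b is below 0 in every comparison on both scales, reaching -2.69 and -2.96 at 7 weeks, while miR-16 lies at -0.05, 0.47 and -0.36 as deposited and below 0 after centring.

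The postnatal ages were then compared with each other. From 2 to 3 weeks no member passed as deposited, where 0.282% of all probes were higher and 15.5% lower. The change of miR-16 was 0.52 ± 0.18 (adjusted p = 0.088 by limma), and miR-497 went from 3 to 1 livers above the floor. After centring, which removed a shift of -0.36, miR-16 rose by 0.88 ± 0.15 (adjusted p = 0.0028 by limma). It was the only member called, against 2.54% of all probes higher and 10.1% lower. Leaving out liver 1 of 2 weeks, the liver with the highest miR-16 value of its age, also made the deposited change a call (0.75, adjusted p = 0.0040 by limma), and leaving out liver 3 of e15.5 did so for miR-497 (adjusted p = 0.031).

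From 3 to 7 weeks all members but miR-497 fell as deposited, miR-15b by 1.75 ± 0.13, miR-322 by 1.47 ± 0.27, miR-15a by 0.99 ± 0.16 and miR-16 by 0.84 ± 0.18 (adjusted p = 1.9e-06, 0.0014, 0.00065 and 0.0042 by limma). miR-195 fell by 1.86 ± 0.47 (adjusted p = 0.0097), a call lost without liver 1 of 7 weeks (adjusted p = 0.055). The SE of miR-195 pools all ages, including the e15.5 livers that have no spread at the floor. Its p here and from 2 to 7 weeks may therefore be too small. This count of 5 lower and 0 higher stood against 29.6% of all probes lower and 11.8% higher, and the bright probes were 1.12 lower at 7 weeks. After centring only miR-15b fell (by 0.63 ± 0.10, adjusted p = 0.00063 by limma), against 10.1% of all probes lower and 17.7% higher. miR-15a and miR-16 were then at 0.13 ± 0.14 and 0.28 ± 0.15 (adjusted p = 0.51 and 0.19).

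From 2 to 7 weeks 4 members fell as deposited and none rose, against 36.1% and 7.32% of all probes. They were miR-195 (by 2.21 ± 0.47), miR-15b (by 1.97 ± 0.13), miR-322 (by 1.83 ± 0.27) and miR-15a (by 0.94 ± 0.16), with adjusted p = 0.0032, 5.2e-07, 0.00026 and 0.00090 by limma. miR-16 was at -0.31 ± 0.18 (adjusted p = 0.21). After centring on a shift of -1.48, the members moved apart. miR-15b fell by 0.49 ± 0.10, miR-15a rose by 0.54 ± 0.14 and miR-16 rose by 1.17 ± 0.15 (adjusted p = 0.0030, 0.011 and 0.00019 by limma), which gave 2 higher and 1 lower against 13.8% and 16.3% of all probes. Among the postnatal comparisons, only the falls of miR-15b to 7 weeks were called in the same direction on both scales.

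Among the 4 members above the floor in all 12 livers, the median change from e15.5 as deposited was -0.33 at 2 weeks, -0.24 at 3 weeks and -1.47 at 7 weeks. Over all 114 probes that never reached the floor the medians were 1.96, 1.65 and 0.41. On the centred scale the medians of the 4 members were -2.08, -1.62 and -1.74, beside 0.21, 0.27 and 0.14 over the 114. miR-195 and miR-497 are not in these medians, since their floor values give no size of change.

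The difference of 2 members within 1 liver does not change when all probes of that liver are scaled by a common factor, since such a factor cancels. It does carry the unknown efficiencies of both probes, so its change with age can be read but not its level. A background subtraction or a quantile normalisation would not cancel as a common factor does. All 6 pairs of the 4 members above the floor were tested. Every pair differed among the 4 ages by an exact permutation test of the F statistic over 369600 arrangements (adjusted p over the 6 pairs from 0.00019 to 0.012). The 6 pairs share 4 probes and are not independent. Pairs of other probes were not put to this test, so the count does not set the family apart. The members were chosen with earlier results of these data known, which these p-values do not take into account.

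The largest change was that of miR-15b minus miR-16, where the miR-16 probe reads both its loci and not only the one beside Mir15b. It was -0.18, 0.21 and -0.01 at e15.5, -0.88, -0.45 and -0.66 at 2 weeks, -1.26, -1.52 and -1.42 at 3 weeks, and -2.10, -2.51 and -2.34 at 7 weeks. No 2 ages overlapped, and each later age lay below the one before. The means went from 0.01 ± 0.20 to -0.66 ± 0.22, -1.40 ± 0.13 and -2.32 ± 0.21 (exact permutation p = 6.5e-05, adjusted p = 0.00019).

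The difference miR-15a minus miR-16 was -0.19, 0.00 and -0.09 at e15.5 and -0.70, -0.48 and -0.79 at 2 weeks. It was -0.997, -1.15 and -1.24 at 3 weeks and -1.29, -1.34 and -1.22 at 7 weeks. It dropped between e15.5, 2 weeks and 3 weeks with no overlap, and 3 and 7 weeks overlapped (exact permutation p = 0.00013 over the 4 ages, adjusted p = 0.00026). Both miR-15a and miR-15b thus lost ground to miR-16 from e15.5 to 3 weeks, and from 3 to 7 weeks the ranges separated for miR-15b alone.

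The difference miR-15a minus miR-15b accordingly opened late. It was -0.01, -0.21 and -0.09 at e15.5, 0.18, -0.03 and -0.13 at 2 weeks, 0.27, 0.37 and 0.18 at 3 weeks, and 0.81, 1.17 and 1.13 at 7 weeks. The 7-week livers stood clear of all others, while 2 weeks overlapped with e15.5 (exact permutation p = 0.00071 over the 4 ages, adjusted p = 0.0011).

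Against miR-322 the means of miR-15b were 5.47 ± 0.35, 4.29 ± 0.43, 4.44 ± 0.30 and 4.16 ± 0.14 at the 4 ages in order, a drop after e15.5 with overlapping postnatal ages (adjusted exact permutation p = 0.012). The means of miR-16 minus miR-322 were 5.46 ± 0.17, 4.96 ± 0.27, 5.84 ± 0.23 and 6.48 ± 0.13, lowest at 2 weeks and highest at 7 weeks (adjusted exact permutation p = 0.00019). Those of miR-15a minus miR-322 were 5.37 ± 0.26, 4.30 ± 0.43, 4.71 ± 0.21 and 5.20 ± 0.16, with 7 weeks back in the e15.5 range (adjusted exact permutation p = 0.0094).

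With the 9 postnatal livers set against the 3 at e15.5, 4 of 6 pairs passed an exact two-sided permutation test over 220 arrangements. Here too, pairs of other probes were not tested. The changes were -1.47 for miR-15b minus miR-16, -1.17 for miR-15b minus miR-322 and -0.93 for miR-15a minus miR-16 (adjusted permutation p = 0.018 each), and -0.63 for miR-15a minus miR-322 (adjusted permutation p = 0.041). The last of these was lost in 8 of 12 settings that each left out 1 liver. The changes of 0.54 for miR-15a minus miR-15b and 0.30 for miR-16 minus miR-322 did not pass (adjusted permutation p = 0.055 and 0.49). Without any 1 of the e15.5 livers no pair passed (lowest adjusted permutation p = 0.073), as 2 livers against 9 allow few arrangements. For 2 single ages the smallest exact p is 0.1, so single steps are given above as overlaps and not as calls.

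miR-195 could be set against the others only after birth. Its difference from miR-15b was -5.43 ± 0.08 at 2 weeks, -5.57 ± 0.35 at 3 weeks and -5.67 ± 0.70 at 7 weeks, with overlapping livers. Its difference from miR-16, its closest relative in sequence, was -6.09 ± 0.14, -6.97 ± 0.39 and -7.99 ± 0.53. At 7 weeks both differences rest on miR-195 readings near background, so no order of 3 and 7 weeks is read from them.

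**Figure D3:**
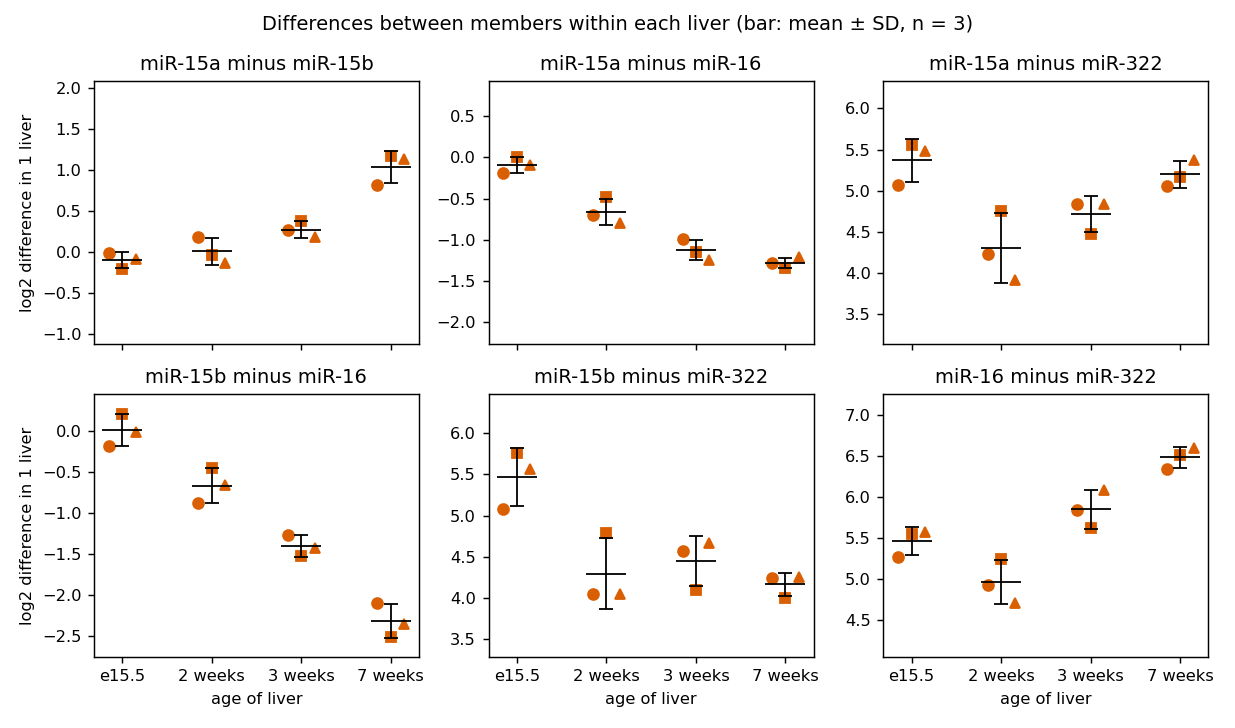
Log2 difference between 2 members within the same liver (vertical axis) against age (horizontal axis), for the 6 pairs of members above the floor everywhere. Circles, squares and triangles are mice 1, 2 and 3, bars are mean ± SD of 3 livers, and all panels span the same number of log2 units. miR-15b minus miR-16 steps down at every age, from 0.01 to -2.32, and miR-15a minus miR-15b rises mainly at 7 weeks, to 1.03.

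At e15.5 the family took 9.47 ± 0.66% of the total linear signal. Its share was 2.17 ± 0.25% at 2 weeks and then 2.64 ± 0.06% and 2.61 ± 0.10% at 3 and 7 weeks. The e15.5 livers, at 8.71 to 9.92%, lay above all postnatal livers, at 1.92 to 2.70%. miR-15a, miR-15b and miR-16 made up 97.6 to 99.3% of the family's signal in every liver. The signal of miR-122 alone went from 7.98 to 37.1% of the total between e15.5 and 3 weeks. Without miR-122 in the total the family's share was 10.3 ± 0.80%, 3.18 ± 0.50%, 4.21 ± 0.19% and 3.78 ± 0.15% at the 4 ages. In these bulk samples fewer cells of a type and less miRNA per cell cannot be told apart.

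Within the family's own signal, miR-16 went from 33.7 ± 2.2% at e15.5 to 43.2 ± 2.7%, 53.7 ± 2.0% and 61.3 ± 1.5% at 2, 3 and 7 weeks, with no overlap between ages. miR-15b went from 33.9 ± 2.4% to 27.3 ± 2.4%, 20.3 ± 1.2% and 12.4 ± 1.5%, also with no overlap. miR-15a went from 31.6 ± 0.11% to 27.4 ± 1.7% at 2 weeks and stayed at 24.6 ± 1.3% and 25.2 ± 0.85%. These shares weigh each probe by its own unknown efficiency, so they show the direction of the change in makeup and not the number of molecules.

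**Figure D4:**
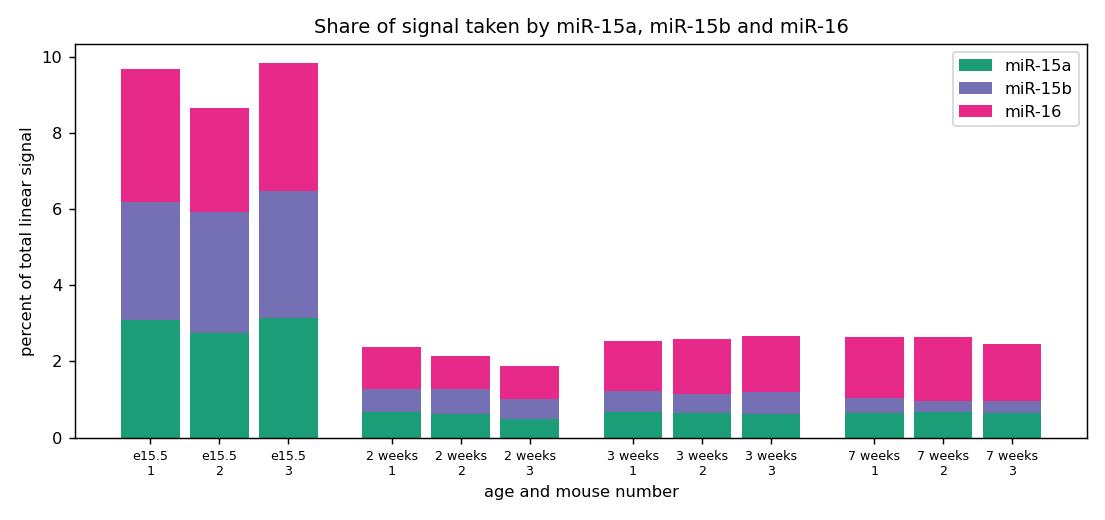
Percent of the total linear signal (vertical axis) taken by miR-15a, miR-15b and miR-16, stacked, in each of the 12 livers by age and mouse number (horizontal axis). The e15.5 bars are the tallest, with 3 nearly equal parts, and in the 7-week bars miR-16 is the largest part (61.3% of the family) and miR-15b the smallest (12.4%).

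Markers of other liver cells moved over the same step. The 3 erythroid probes (miR-451, miR-144 and miR-486) together took 7.21 to 10.5% of the signal at e15.5. At 2, 3 and 7 weeks they took 1.45 to 2.22%, 2.0 to 2.30% and 1.01 to 2.23%. As deposited, miR-451 was called higher at 2 weeks (0.68 ± 0.20, adjusted p = 0.017 by limma) and 3 weeks (0.71 ± 0.20, adjusted p = 0.012). It was called lower at 7 weeks as deposited and at every postnatal age after centring (-1.06 ± 0.19 at 2 weeks). miR-144 and miR-486 were called lower at every postnatal age on both scales. The 6 leukocyte probes took 4.0 to 4.85% at e15.5 and 0.381 to 0.538% after birth, a fall carried by miR-142-3p and miR-223. Of the same 6 probes 2 were called higher at every postnatal age on both scales, miR-150 (4.08 ± 0.26 at 2 weeks as deposited and 2.34 ± 0.24 after centring) and miR-342-3p, which was at the floor at e15.5. The 5 hepatocyte probes went from 8.03 to 10.6% at e15.5, with miR-802 at the floor, to between 33.6 and 46.3% after birth. The 2 endothelial probes took 2.97 to 3.41% before birth and were highest at 2 weeks (7.20 to 8.21%), with 4.31 to 4.70% left at 7 weeks, and the 5 mesenchymal probes took 0.894 to 1.05%, 1.08 to 1.29%, 0.787 to 0.893% and 0.584 to 0.639%, with miR-214 at the floor at 3 weeks. Both endothelial probes were called higher than at e15.5 at every postnatal age on both scales. Beside these marker calls against e15.5, 28.2%, 25.6% and 18.6% of all probes were higher at 2, 3 and 7 weeks as deposited. The lower shares were 22%, 32.7% and 26.2%. After centring 19.2%, 18% and 17.5% were higher and 45.6%, 49.9% and 29.3% lower. After birth the erythroid sum, most of it miR-451, overlapped between the ages, but miR-144 alone took 0.280 to 0.466%, 0.485 to 0.551% and 0.0988 to 0.208% at 2, 3 and 7 weeks. From 3 to 7 weeks miR-144 fell by 2.77 ± 0.26 as deposited and by 1.65 ± 0.25 after centring (adjusted p = 1.1e-05 and 0.00062 by limma). The part of these cell types in the family's changes, before and after birth, was not tested.

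The spread of each member over all 12 livers was set against that of the other probes above the floor. As deposited miR-16 had an SD of 0.37 log2 units over the 12 livers, the 3rd smallest of 114 probes, whose median SD was 1.15. On the centred scale its SD was 0.70, 43rd of 114, and by share of signal 0.68, also 43rd. The small spread of miR-16 as deposited therefore did not hold after centring or by share of signal, and its spread under other scalings is not given here. miR-15b had an SD of 1.04 as deposited and 1.20 after centring, which placed it 45th and 85th.

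The probes whose course over the 12 livers was most like a member's were found by the root mean square (RMS) difference of log2 values after each probe was set to its own mean, among the 113 other probes above the floor in all livers. For miR-15b they were miR-25 (RMS 0.18), the combined miR-20a+miR-20b probe (0.22), the combined miR-106a+miR-17 probe (0.23), miR-19a (0.31) and miR-93 (0.35), where the median over all 113 was 1.31. All 5 belong to the miR-17 cluster or its paralogs, which are linked to proliferation. miR-15a came 10th in that order, at 0.46.

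For miR-16 the nearest probes were miR-191 (RMS 0.30), miR-185 (0.37), miR-103 (0.37), miR-720 (0.45) and miR-15a (0.47), against a median of 1.04, and miR-15b was 39th at 0.88. For miR-15a they were miR-1944 (0.23), miR-374 (0.35), miR-191 (0.45), miR-25 (0.45) and miR-15b (0.46). The course of miR-15a was therefore about equally far from that of miR-15b and that of miR-16, which was next at 0.47. miR-720 is annotated as a fragment of a transfer RNA in later miRNA catalogues.

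For miR-322 the nearest probes were miR-106b (RMS 0.29), the stellate and mesenchymal miR-199a-5p (0.35) and miR-199a-3p (0.43), miR-191 (0.44) and miR-185 (0.47). For miR-195, over the 9 postnatal livers and 128 candidates, they were miR-340-5p (0.30), miR-143 (0.32), miR-140 (0.33), miR-106a+miR-17 (0.33) and miR-145 (0.34). miR-143 and miR-145 are known from smooth muscle and stellate cells. After centring these 2 were called higher than at e15.5 at every postnatal age, and both miR-199a probes near miR-322 were called lower. As deposited miR-143 and miR-145 were again called higher at every postnatal age. The miR-199a probes were then called higher at 2 weeks (miR-199a-3p by 1.31 and miR-199a-5p by 0.87). At 3 weeks only miR-199a-3p was called, as higher (0.39), and at 7 weeks both were called lower (-0.85 and -1.35). With 9 livers the median RMS over the candidates for miR-195 was 0.58, so its nearest probes are less far from the rest than those of miR-15b. RMS likeness is a description over livers that share age, total signal and scaling.

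**Figure D5:**
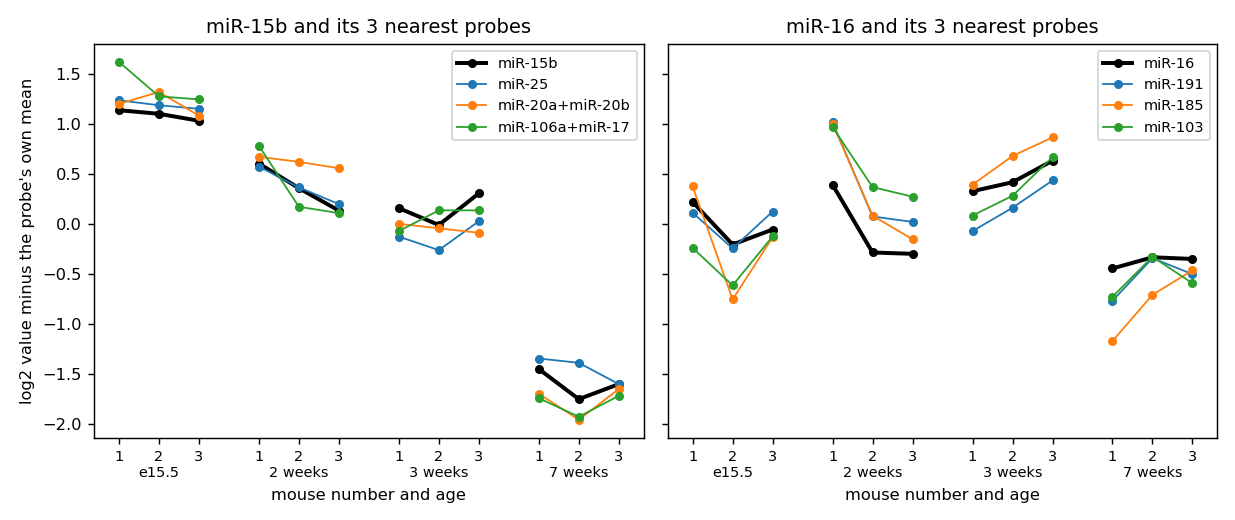
Log2 value minus the probe's own mean over the 12 livers (vertical axis) for miR-15b (left) and miR-16 (right), each with the 3 probes nearest to it, by mouse number and age (horizontal axis). Lines join livers of 1 age only to guide the eye, as mouse numbers have no order. miR-15b and its 3 neighbours lie between 1.03 and 1.62 at e15.5 and between -1.96 and -1.35 at 7 weeks, while miR-16 stays between -0.45 and 0.63.

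miR-103 and miR-107, encoded in introns of pantothenate kinase genes, carry the same 7 letters 1 base earlier and so are often grouped with this family as a wider set. They are shown for that shift, with the shared letters in capitals.
miR-103: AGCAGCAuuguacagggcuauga
miR-107: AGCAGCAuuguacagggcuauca

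In order of age miR-103 read 7.87 ± 0.26, 8.73 ± 0.38, 8.54 ± 0.30 and 7.65 ± 0.20. It rose by 0.86 ± 0.23 from e15.5 to 2 weeks as deposited (adjusted p = 0.011 by limma) and fell by 0.88 ± 0.20 after centring (adjusted p = 0.0039). miR-107 read 6.90 ± 0.59, 9.35 ± 0.56, 8.84 ± 0.29 and 7.13 ± 0.27. It rose by 2.45 ± 0.35 over the same step as deposited (adjusted p = 0.00017 by limma), and its centred change of 0.71 ± 0.32 was not called (adjusted p = 0.076). Neither shifted-seed probe differed between 7 weeks and e15.5 by the test, as deposited (-0.22 ± 0.23 and 0.23 ± 0.35) or centred (-0.49 ± 0.20 and -0.04 ± 0.32, adjusted p = 0.071 and 0.97 by limma), whereas miR-15b and miR-15a were called there on both scales.

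Mir322 belongs to a cluster on the X chromosome, and 2 other probes of its cluster were present. miR-450a-5p read 7.28 ± 0.36 at e15.5, 7.90 ± 0.31 at 2 weeks and 6.89 ± 0.25 at 3 weeks. At 7 weeks it was at the floor in 1 liver and read 3.18 and 3.81 in the others. Like miR-322 it was thus lowest at 7 weeks as deposited. After centring, the change of miR-322 to 7 weeks was -0.35 ± 0.26 from 3 weeks and -0.36 ± 0.26 from 2 weeks. Neither was called (adjusted p = 0.39 and 0.33 by limma). miR-542-5p was above the floor in all 3 livers at e15.5 (3.03, 2.41 and 3.76), in 1 liver at 2 weeks (3.74) and in none at 3 and 7 weeks.

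Other miRNAs that restrain the cell cycle, listed by name and including let-7, miR-26, miR-29, miR-34, miR-24 and miR-145, had 17 of 20 listed members on the panel. At 2, 3 and 7 weeks against e15.5, 16, 16 and 13 of these 17 were higher and 0, 1 and 1 were lower as deposited, and 13, 12 and 12 were higher and 1, 2 and 2 lower after centring. Over all probes the higher share was 28.2%, 25.6% and 18.6% as deposited and 19.2%, 18% and 17.5% centred. The lower share was 22%, 32.7% and 26.2% as deposited and 45.6%, 49.9% and 29.3% centred. These shares include probes at the floor in some livers, whereas all 17 were above it in every liver. The share called among the 114 probes above the floor is not given here. Their median changes as deposited were 3.48, 3.10 and 2.11, beside 1.96, 1.65 and 0.41 over the 114 probes, and after centring 1.73, 1.71 and 1.84, beside 0.21, 0.27 and 0.14. Examples were let-7c, up by 5.09 ± 0.29 at 2 weeks (adjusted p = 1.5e-07 by limma), and miR-29c, up by 4.84 ± 0.11 at 7 weeks (adjusted p = 7.9e-11). Those lower as deposited were miR-34c at 3 weeks (-0.44 ± 0.15) and let-7i at 7 weeks (-0.41 ± 0.09). After centring they were miR-34c at 2 and 3 weeks (-2.01 ± 0.21 and -1.82 ± 0.21), let-7i at 3 and 7 weeks (-0.41 ± 0.08 and -0.68 ± 0.08) and let-7e at 7 weeks (-0.47 ± 0.08).

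The proliferation-linked list, with 9 of 12 listed probes on the panel, had 5, 5 and 8 members lower and 3, 2 and 1 higher against e15.5 as deposited, and 7, 7 and 8 lower and 2, 2 and 1 higher after centring. Over all probes the lower share was 22%, 32.7% and 26.2% as deposited and 45.6%, 49.9% and 29.3% centred. The higher share was 28.2%, 25.6% and 18.6% as deposited and 19.2%, 18% and 17.5% centred. Without miR-221, which was at the floor in some livers, the median changes of the 8 others were -0.66, -1.22 and -2.80 as deposited and -2.41, -2.60 and -3.07 after centring. miR-19a fell by 1.29 ± 0.08 at 2 weeks and miR-93 by 3.31 ± 0.25 at 7 weeks, and miR-21, which is also induced in inflammation and fibrosis, rose by 4.36 ± 0.28 at 7 weeks (adjusted p = 2.1e-07, 1.2e-06 and 2.9e-07 by limma). Beside these medians, the changes of miR-15b over the same steps were -0.72, -0.94 and -2.69 and those of miR-15a were -0.62, -0.57 and -1.55. All of these comparisons share the e15.5 livers, and the difference between the family and either list was not tested. Both lists, like the members, were chosen with earlier results of these data known.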

How the data were processed

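The authors deposited log2 values of 355 nCounter probes. Partek 6.6 is the one tool in the submitters' processing notes; background subtraction and scaling are not given in the sources used here. Raw counts were not used, so counting intervals were not computed and the total linear signal stands in for depth. The lowest deposited log2 value, -9.97, was read as a floor, and no fold is given against it. The members and lists were chosen with earlier results of these data known. Named probes are all members, shifted-seed and cluster probes on the panel, the 5 nearest probes by RMS, and per list the called probe with the largest rise or fall.

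limma 3.58.1 (R 4.3.3; lmFit, eBayes with trend) was fitted to the 12 samples with age as the factor, and p-values were adjusted by Benjamini-Hochberg over 355 probes. The step was tested on simulated data. Within-liver differences used exact permutation tests in Python 3.11.15 with numpy 2.4.6, and figures matplotlib 3.10.9. Labels do not state separate litters, so p-values measure the spread between these samples. Mouse numbers did not pair samples across ages: deviations of same-numbered samples correlated between -0.41 and 0.52 (median 0.03 over 18 pairs). Alternatives were 4 scalings, 2 filters on low values, log2(linear + 1) and log2(linear + 10), no variance trend, a fit to the 2 ages of a comparison, a block on mouse number, and leaving out 1 liver at a time. Sequences and loci came from RefSeq tables of GRCm38.p6.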

Additional observations from a re-analysis of the deposited data

How the results depend on the processing

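Members called at 2 weeks against e15.5 were 3 as deposited and 5 when samples were centred on the 100 brightest probes or on the median of the 114, divided by total signal, or quantile normalised. From 3 to 7 weeks, 5 became 1 under those same 4 scalings, and from 2 to 7 weeks 4 became 2 after quantile normalisation. From 2 to 3 weeks, 0 became 1 under the first 3 scalings and among only the 114 probes above the floor. At 3 weeks against e15.5, 4 became 2 without a variance trend. Shares of all probes called are given above for the deposited and centred scales only. Under the other settings, including those that left out 1 liver, the counts of members are therefore not set against the whole panel. The scalings remove a shift of the bright probes between ages by construction; for the other changes the cause was not tested. Signs turned under centring on the 100 brightest probes, on the median and on total signal, in that order: miR-322 at 2 weeks (-1.29, -1.32, -1.27) and 3 weeks (-1.30, -1.26, -1.55) against e15.5, miR-16 at 3 weeks against e15.5 (-0.91, -0.87, -1.17, and -0.54 by quantiles), and, at 7 against 3 weeks, miR-15a (0.130, 0.0777, 0.0193, and 0.00601 by quantiles) and miR-16 (0.28, 0.23, 0.17). At 7 against 2 weeks they turned for miR-15a (0.54, 0.56, 0.15, and 0.44 by quantiles) and miR-16 (1.17, 1.18, 0.78).

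With each liver left out in turn, members called ranged from 3 to 4, 3 to 4 and 4 to 5 at 2, 3 and 7 weeks against e15.5, from 0 to 1 at 3 against 2 weeks, from 4 to 6 at 7 against 3 weeks and stayed 4 at 7 against 2 weeks; over all ages 4 to 6. All 6 pairs kept passing over 4 ages, and 0 to 5 passed for postnatal livers against e15.5, with 0 only without an e15.5 liver. The 1 at 3 against 2 weeks came without e15.5 liver 3 (miR-497, adjusted p = 0.031 by limma) or without 2-week liver 1 (miR-16). With the mouse number as a replicate block, 3 instead of 4 members were called at 3 weeks against e15.5 (miR-16, adjusted p = 0.055 by limma), and the 6 other counts did not change. Of the values of single members and pairs, 538 of 576 kept their call with a liver left out (27 lost and 11 gained a call). Under the other alternatives 341 of 402 did so (22 lost, 15 gained and 24 turned sign with a call in either fit). Changes that were never called count as kept even where their sign turned. An example is miR-322 at 3 weeks against e15.5, at 0.09 with all livers and between -0.05 and 0.31 with a liver left out. Values near the floor limit miR-497 throughout and miR-195 at 7 weeks.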
